A study of Rattus norvegicus with 77 samples.

Results

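Meiosis and piRNA pathway genes were followed in the sperm RNA of rats exposed to 2,5-hexanedione (HD), a Sertoli cell toxicant. The set held 32 genes, and a gene was represented by the probe set that carried its symbol alone in the platform annotation, the brightest one where there were several. Of the 32 genes, 28 were measured in this way, out of 14506 genes with such a probe set and 29214 probe sets on the array. Syce2, Tdrd6, Mov10l1 and Rnf212 were not analysed here, and Tdrd9 was the 1 member with more than 1 probe set. The genes were chosen by their role and not by their values, although earlier results of these arrays were known when the list was drawn up.

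Sperm of adult Fischer 344 rats were released from the cauda epididymides. They passed through a brief ammonium chloride lysis step, meant to remove somatic cells, before RNA extraction. The study reported that no somatic cells were seen by microscopy and that ribosomal RNA peaks were absent on gel electrophoresis. RNA of each rat was hybridised to its own Affymetrix whole-transcript rat gene array. The HD group (n = 19) drank 0.33% HD for 3 months and was killed at the end of exposure, beside a water group (n = 20). The HD-recovery group (n = 20) had the same exposure followed by 3 months on plain water, beside a water-recovery group (n = 18) that had water throughout. Values were log2 intensities, with array medians between 6.51 and 6.78. Some members lay below these medians, with means in water arrays of 4.80 for Sycp3, 5.50 for Meiob, 5.61 for Sycp1, 5.67 for Dmc1 and 5.86 for Msh4. Others lay above, such as Mael at 7.57 and Stag3 at 7.67. Whether the low values exceed the background of the array was not tested. Markers of spermatids, whose RNA persists in sperm, were present in all groups: the mean of 16 markers lay between 9.13 and 11.26 in the HD arrays, between 9.05 and 10.67 in the water arrays, between 9.23 and 10.51 in the HD-recovery arrays and between 9.30 and 10.22 in the water-recovery arrays. In such bulk RNA, fewer cells of a type and less RNA per cell cannot be told apart.

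During meiosis, programmed DNA breaks are made and repaired on chromosome axes built from cohesin and axis proteins. The synaptonemal complex holds homologous chromosomes together while some breaks mature into crossovers. piRNAs are small RNAs bound by PIWI proteins, and in mouse germ cells they work with Tudor-domain proteins, the helicase DDX4 and MAEL in perinuclear granules to silence transposons. These transcripts belong to spermatogonia, spermatocytes and early spermatids, so sperm from the cauda would carry only what is left of them after spermatogenesis.

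Arrays of 1 group were not equally alike. Each array was correlated with every other one of its group, and the median of these values was 0.97 at the middle array and 0.83 in HD replicate 5, the lowest of the 77. An array was taken to stand apart where this correlation lay more than 3 scaled median absolute deviations below the median, that is under 0.957. This held for 5 HD arrays (replicates 3, 4, 5, 7 and 14), 3 water arrays (9, 12 and 20), 3 HD-recovery arrays (2, 9 and 16) and 2 water-recovery arrays (12 and 15). All 77 arrays were kept in the main comparisons, and the counts of calls are given with and without these arrays.

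**Figure D1:**
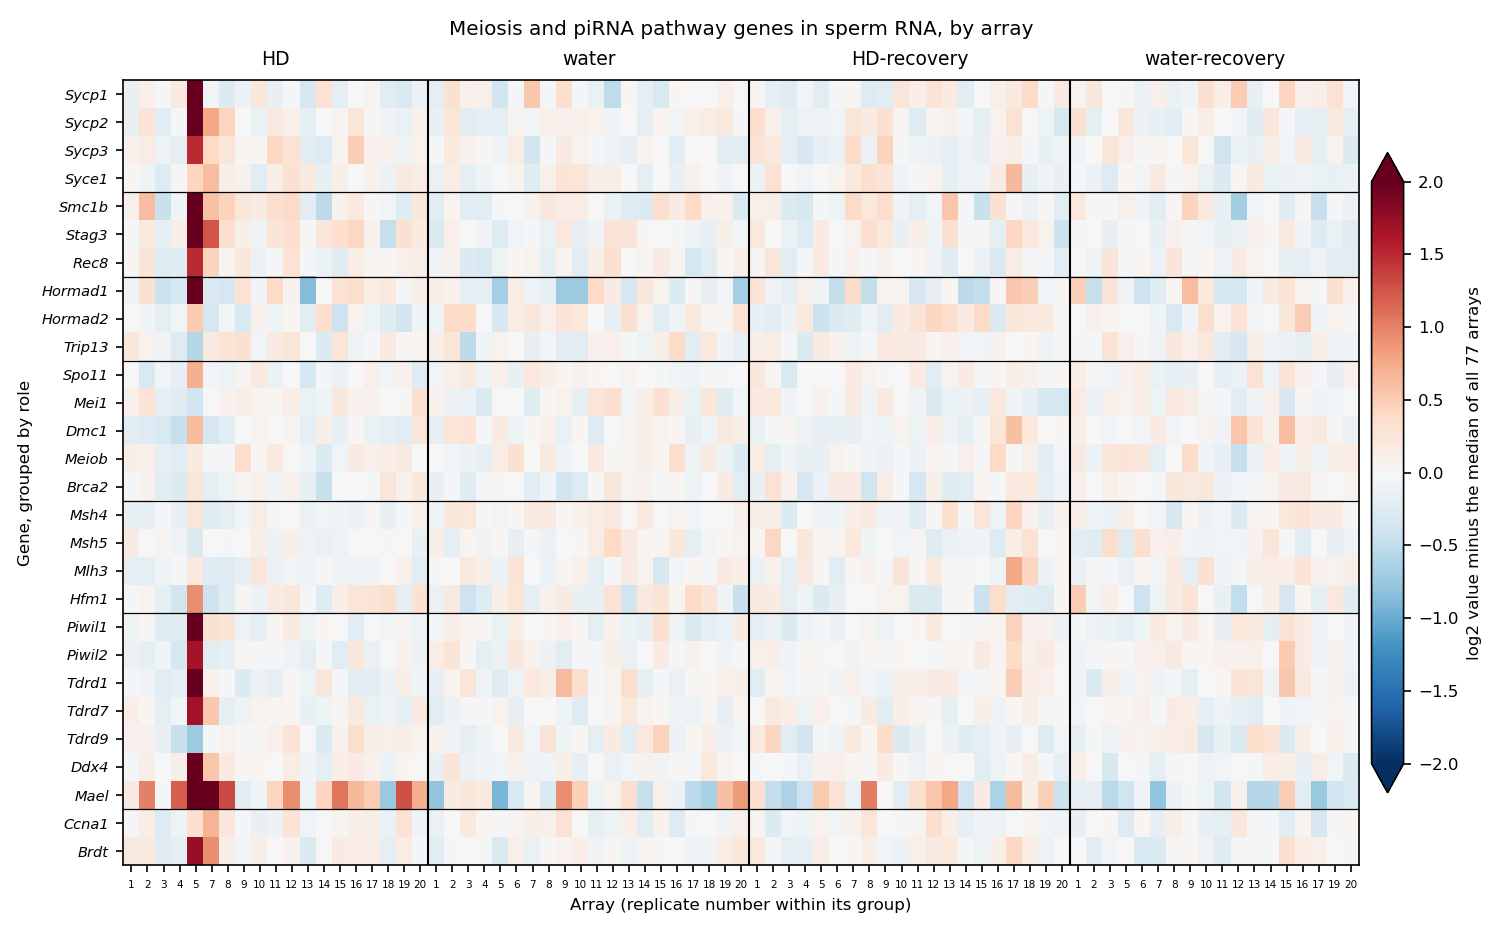
Heat map of the 28 measured genes (rows, grouped by role, with lines between roles) in the 77 arrays (columns, by group and replicate number). Colour gives the log2 value minus the gene's median over all arrays, with the scale ending at 2 and −2 log2 units. HD replicate 5 is the darkest column, HD replicate 7 is raised for a smaller number of genes, and Mael is the row that varies across every group.

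The most prominent feature of the set was a single array. HD replicate 5 was the highest of the 77 arrays for 18 of the 28 genes (64.3%), against 16.8% of all probe sets, and for 11 genes it lay at least 1 log2 unit above every other array, which was the case for 3.55% of all probe sets. It was the lowest of the 77 for Trip13, Mei1, Msh5 and Tdrd9, and 34.1% of all probe sets were lowest in it. These values were described after they were seen and were not tested, since the array was singled out from them.

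In HD replicate 5 the genes of the chromosome axis and the synaptonemal complex were far above their usual level. Sycp2, a protein of the lateral elements, had a log2 value of 9.05, whereas the other 76 arrays lay between 5.26 and 6.36. Smc1b, the meiotic SMC subunit of cohesin, had 9.30, with 5.37 to 6.68 elsewhere. Hormad1, which marks unsynapsed axes, had 10.02, with 6.01 to 7.49 elsewhere. In each case no other array of any group came within 2 log2 units. Sycp1, the transverse filament protein, was at 8.00 and at most 6.16 elsewhere. Rec8, the meiotic kleisin subunit of cohesin, was at 7.69 and at most 6.65 elsewhere, and Stag3, the meiosis-specific STAG subunit, was at 9.87 and at most 8.94.

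The piRNA genes were raised in the same array. Ddx4, the germ cell RNA helicase, was at 9.04 in HD replicate 5 and between 5.73 and 6.60 in the others. Piwil1, the PIWI protein that binds pachytene piRNAs in mouse, was at 9.93, with 7.05 to 7.80 in the others. Tdrd1, a Tudor-domain scaffold, was at 9.26, with 6.26 to 7.17 in the others. Piwil2, Tdrd7 and Mael were likewise highest there, at 8.56, 8.78 and 12.53, and at most 7.43, 7.62 and 10.51 elsewhere. Tdrd9, a Tudor-domain helicase, ran the other way, at 6.85 in HD replicate 5 and no lower than 7.14 elsewhere. It was read from the brighter of its 2 probe sets, and HD replicate 5 also had the lowest array median (6.51). The recombination genes moved less: Spo11, the enzyme that makes the breaks, was at 7.09 against at most 6.68 elsewhere, and Msh4, Mlh3, Meiob and Brca2 stayed within the range of the other arrays.

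HD replicate 7 held 1 of the 2 highest values for 9 of the 28 genes. It came second to HD replicate 5 for Mael (10.51), Stag3 (8.94), Brdt (7.73), Ddx4 (6.60), Rec8 (6.65), Sycp2 (6.36) and Tdrd7 (7.62), and second to an HD-recovery array for Syce1 (7.10). It was the highest array for Ccna1 (7.78), the cyclin of the male meiotic divisions. Brdt is the bromodomain protein of spermatocytes and spermatids.

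**Figure D2:**
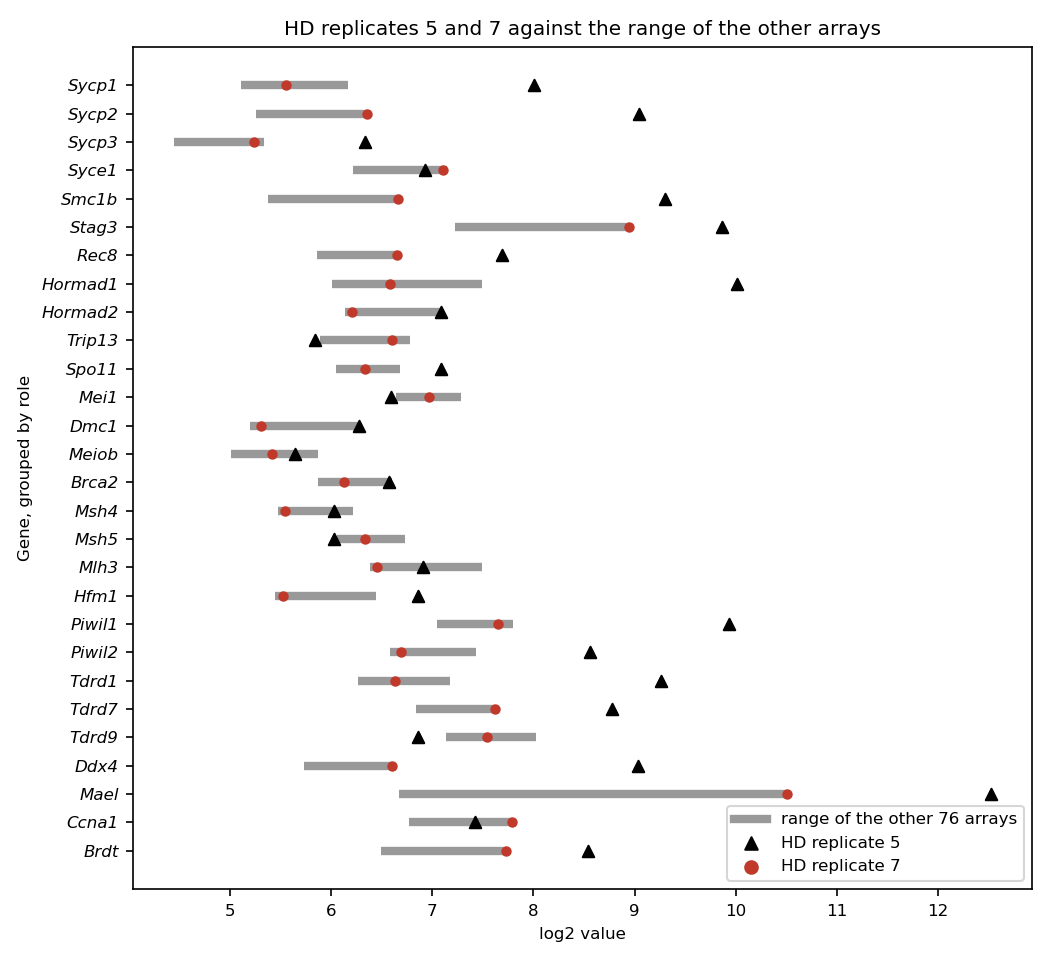
Log2 value of each of the 28 genes in HD replicate 5 (black triangles) and HD replicate 7 (red circles), with grey bars for the range of the 76 arrays other than HD replicate 5. Triangles lie to the right of the bar for 18 genes and to its left for Trip13, Mei1, Msh5 and Tdrd9.

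Markers of other cells were read in the same array. Of 7 measured markers of pachytene spermatocytes and round spermatids, 6 were highest of the 77 arrays in HD replicate 5, and their list mean was 10.15, against at most 9.14 in the others. Among 16 spermatid markers, 6 were highest there, and Acrv1, an acrosomal protein, was at 11.03 with at most 7.40 elsewhere. Prm1 and Tnp2 went the other way in this array, at 12.78 and 10.79, below their medians over all arrays (12.88 and 10.96). Odf1 (14.07) and Smcp (14.08) lay close to their medians (14.03 and 14.07) in this array. Of 13 Sertoli cell markers, 7 were highest there, with a list mean of 7.79 against at most 7.06. Cldn11, the tight junction protein of the blood-testis barrier, was at 10.19 with at most 7.03 elsewhere, and Clu was at 11.30 with at most 10.58. The Sertoli markers Amh, Inhbb, Fshr and Rhox5 went the other way, at 6.01, 6.71, 6.21 and 6.86, below their medians over all arrays (6.66, 7.28, 6.78 and 7.27). Inha (7.07) and Tf (8.23) were above their medians (6.93 and 7.43) and below the highest other array (7.34 and 8.69). Clu was also the 1 Sertoli marker called between HD and water with all arrays, higher in arrays labelled HD, beside 0.472% of all probe sets. The study had selected Clu on the same arrays. In HD replicate 5 the spermatogonial list mean was 6.78, inside the range of the others, which reached 7.05, and the leukocyte list mean was 7.23, with up to 8.35 elsewhere. The erythroid and epididymal list means were 7.08 and 7.07, with up to 7.74 and 8.49 elsewhere. Each of these lists held 1 gene that was highest in HD replicate 5. These were Uchl1 (8.88), Aif1 (8.87), Hemgn (11.56) and Cst8 (9.39), with at most 8.75, 7.52, 9.18 and 8.37 elsewhere. The mean of 12 fibroblast and connective tissue markers, 7.16, was the lowest of the 77. The part of other cells in the values of this array was not tested.

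At the end of exposure, none of the 28 genes differed between the HD and the water group at a q-value under 0.05 (limma with Storey's q-values). Each log2 fold change subtracts the mean of arrays labelled water (or water-recovery) from that of arrays labelled HD (or HD-recovery). Groups carry their labels here because, for the transcripts listed by the study, this direction runs opposite to the one it gives. Across the array 138 probe sets passed, 5 higher and 133 lower in arrays labelled HD, or 0.472% of those tested. The smallest q of a member was 0.152. At an unadjusted p under 0.05, 5 members differed (17.9%), beside 8.30% of all probe sets, and these were Mael, Stag3 and Sycp3 on the higher side and Msh4 and Hormad2 on the lower. The median log2 fold change of the 28 genes was 0.06, beside 0.01 over all probe sets, with 19 positive and 9 negative.

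Mael, whose product is needed for transposon silencing in the mouse male germline, showed the widest values and the largest fold change of the set. Its log2 value ran from 6.83 to 12.53 with a median of 8.23 in the HD arrays, and from 6.67 to 8.51 with a median of 7.64 in the water arrays. The groups overlapped, and 14 of the 19 HD arrays lay above the water median. The means were 8.44 ± 1.27 (SD, n = 19) for HD and 7.57 ± 0.51 (SD, n = 20) for water, a log2 fold change of 0.87 (SE 0.29), or 1.83-fold, with an unadjusted limma p of 0.00489 and q = 0.222. Without HD replicate 5 the log2 fold change was 0.64 (q = 0.104).

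Stag3 was the next on the higher side. It ran from 7.23 to 9.87 with a median of 7.89 in HD arrays, and from 7.40 to 7.95 with a median of 7.65 in water arrays, and 16 of the 19 HD arrays lay above the water median. Its log2 fold change was 0.32 (SE 0.13, limma p = 0.0165, q = 0.389), and 0.21 without HD replicate 5. Sycp3, a structural protein of the axis and lateral elements, had values of 4.57 to 6.33 with a median of 4.92 in HD arrays and 4.47 to 5.03 with a median of 4.82 in water arrays. Its log2 fold change of 0.20 (SE 0.09, limma p = 0.0321, q = 0.518) became 0.13 without HD replicate 5. For these genes the upper end of the HD range was set by HD replicate 5.

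On the lower side, the members had small differences and narrow groups. Msh4, which pairs with Msh5 to stabilise recombination intermediates, ran from 5.54 to 6.03 with a median of 5.74 in HD arrays and from 5.71 to 6.02 with a median of 5.84 in water arrays. In 16 of the 19 HD arrays it lay below the water median, and the log2 fold change was −0.13 (SE 0.04, limma p = 0.00226, q = 0.152). The highest HD value was again that of replicate 5, and without it Msh4 passed, at −0.15 (q = 0.0280), the 1 member called when 1.13% of all probe sets were. Hormad2, an axis protein of the synapsis checkpoint in mouse, ran from 6.15 to 7.08 with a median of 6.48 in HD arrays and from 6.23 to 6.94 with a median of 6.65 in water arrays. Its log2 fold change was −0.16 (SE 0.07, limma p = 0.0222, q = 0.453), with 17 of 19 HD arrays below the water median. Mlh3, which acts in crossover resolution, had 6.45 to 6.95 (median 6.62) in HD arrays and 6.38 to 6.98 (median 6.73) in water arrays, with a log2 fold change of −0.09 (SE 0.05, limma p = 0.0713, q = 0.674).

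**Figure D3:**
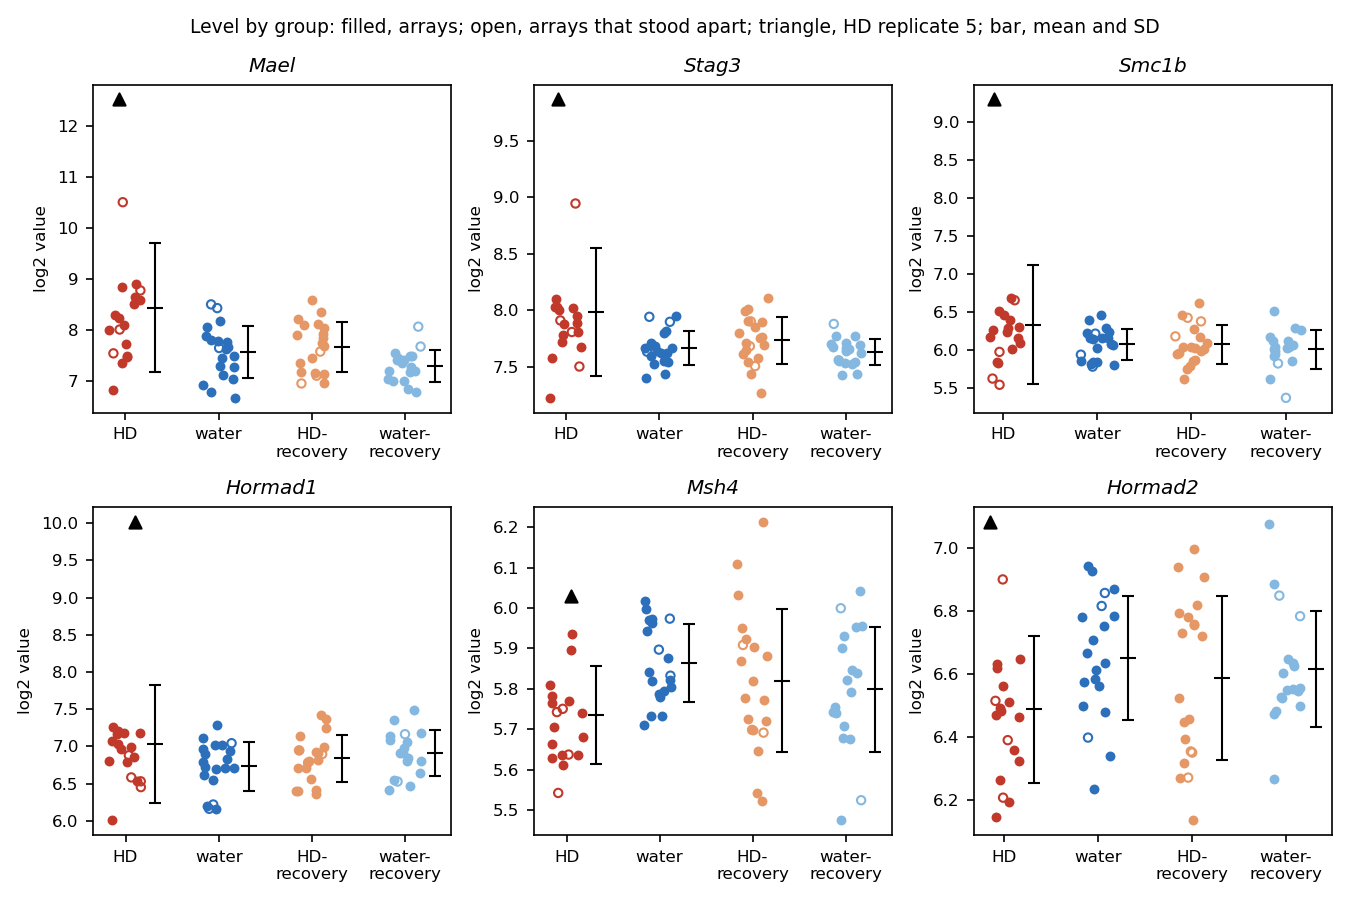
Log2 values of Mael, Stag3, Smc1b, Hormad1, Msh4 and Hormad2 in the 4 groups (HD beside water, then HD-recovery beside water-recovery), 1 point per array. Open circles are arrays that stood apart, the black triangle is HD replicate 5, and bars give the mean and SD of each group. The triangle lies above all other arrays for 5 of the genes and within the range for Msh4.

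By role, the differences at the end of exposure had these ranges, and no member of any role passed. All 4 measured synaptonemal complex genes had positive log2 fold changes, from 0.08 to 0.24, and so had the 3 meiotic cohesin genes, from 0.14 for Rec8 to 0.32 for Stag3. When HD replicate 5 was left out Sycp1 turned to −0.05, and Sycp2, the highest of the synaptonemal complex genes, had 0.07. Smc1b then had 0.10, against 0.26 with all arrays, and Rec8 had 0.07. Among the axis checkpoint genes, Hormad1 had 0.30 (SE 0.18), which became 0.13 without HD replicate 5, and Trip13, the ATPase that removes HORMA proteins from axes, had 0.06. The 5 genes of break formation and strand exchange lay between −0.11 for Dmc1, the meiotic recombinase, and 0.04 for Brca2, which loads recombinases onto resected DNA. Of the 4 crossover genes 3 were negative, and Hfm1, a helicase, had 0.04. The 7 piRNA genes lay between −0.02 for Tdrd9 and 0.87 for Mael, with Ddx4 at 0.23, and 0.08 without HD replicate 5. Ccna1 had 0.06, and Brdt had 0.17, and 0.08 without HD replicate 5. Without HD replicate 5 the values of Piwil1, 0.13 with all arrays, and Hfm1 were both −0.01, and that of Tdrd9 was 0.02.

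After 3 months of recovery, no member passed at q under 0.05 when HD-recovery was set against water-recovery, and neither did any other probe set (0% called, by limma with Storey's or with Benjamini-Hochberg adjustment). At an unadjusted p under 0.05, Mael was the 1 member of 28 that differed (3.57%), beside 4.51% of all probe sets. The median log2 fold change of the members was 0.02, beside −0.01 over all probe sets, and 15 were positive and 13 negative. The largest and smallest values were those of Mael and of Brca2 and Dmc1.

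Mael ran from 6.95 to 8.60 with a median of 7.72 in HD-recovery arrays and from 6.78 to 8.07 with a median of 7.32 in water-recovery arrays. Of the 20 HD-recovery arrays, 14 lay above the water-recovery median. The log2 fold change was 0.37 (SE 0.13), or 1.29-fold, with a limma p of 0.00673 and q = 0.769, and it lay between 0.32 and 0.41 over the fits that omitted a single array. Syce1, a central element protein, had 6.31 to 7.15 (median 6.48) in HD-recovery arrays and 6.21 to 6.68 (median 6.41) in water-recovery arrays, a log2 fold change of 0.11 (SE 0.06, limma p = 0.0574). Stag3 had 7.27 to 8.11 (median 7.73) in HD-recovery arrays and 7.43 to 7.88 (median 7.65) in water-recovery arrays, a log2 fold change of 0.10 (SE 0.06, limma p = 0.0795).

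On the lower side in recovery, the members again had overlapping groups. Brca2 ran from 5.92 to 6.60 with a median of 6.29 in HD-recovery arrays and from 6.21 to 6.54 with a median of 6.37 in water-recovery arrays, a log2 fold change of −0.10 (SE 0.05, limma p = 0.0780). Dmc1 ran from 5.44 to 6.24 with a median of 5.60 in HD-recovery arrays and from 5.53 to 6.26 with a median of 5.69 in water-recovery arrays, a log2 fold change of −0.10 (SE 0.06, limma p = 0.127). Sycp1 ran from 5.35 to 5.99 with a median of 5.63 in HD-recovery arrays and from 5.47 to 6.13 with a median of 5.70 in water-recovery arrays, a log2 fold change of −0.09 (SE 0.06, limma p = 0.181). Neither Smc1b, at 0.07 (SE 0.08), nor Hormad1, at −0.07 (SE 0.10), which varied widely at the end of exposure, passed.

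Leaving out the arrays that stood apart changed the calls across the whole array as well as in the set. At the end of exposure, 9 of the 28 members (32.1%) then passed at q under 0.05, beside 36.8% of all probe sets, so that the members were called about as often as the rest. The calls over all probe sets were then 6576 higher and 4163 lower, where the fit to all arrays had 5 higher and 133 lower. By Benjamini-Hochberg adjustment 4 members passed, beside 18.1% of all probe sets. With 14 HD and 17 water arrays, the 5 higher members were Mael (log2 fold change 0.61, q = 0.00722), Stag3 (0.19, q = 0.0150), Sycp3 (0.16, q = 0.0182), Rec8 (0.12, q = 0.0401) and Mei1 (0.12, q = 0.0478), a gene needed for break formation in mouse. The 4 lower members were Hormad2 (−0.20, q = 0.0105), Msh4 (−0.12, q = 0.0124), Tdrd1 (−0.13, q = 0.0323) and Dmc1 (−0.12, q = 0.0407). In recovery, with 17 HD-recovery and 16 water-recovery arrays, Mael was the 1 member that passed (3.57%), at 0.52 (q = 0.00609), beside 13.1% of all probe sets, and it passed by Benjamini-Hochberg adjustment too, beside 4.80%. In the same fit 4 of the 7 markers of pachytene spermatocytes and round spermatids were higher in HD-recovery (median log2 fold change 0.32), and so were 11 of the 16 spermatid markers (median 0.38). At the end of exposure 1 of these 7 markers was higher and 1 lower (median 0.04), and 5 of the 16 spermatid markers were higher and 5 lower. The part of these cells in the calls of Mael was not tested. Mael was thus the member called in both comparisons under this setting, which was chosen on the arrays' agreement with their group.

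**Figure D4:**
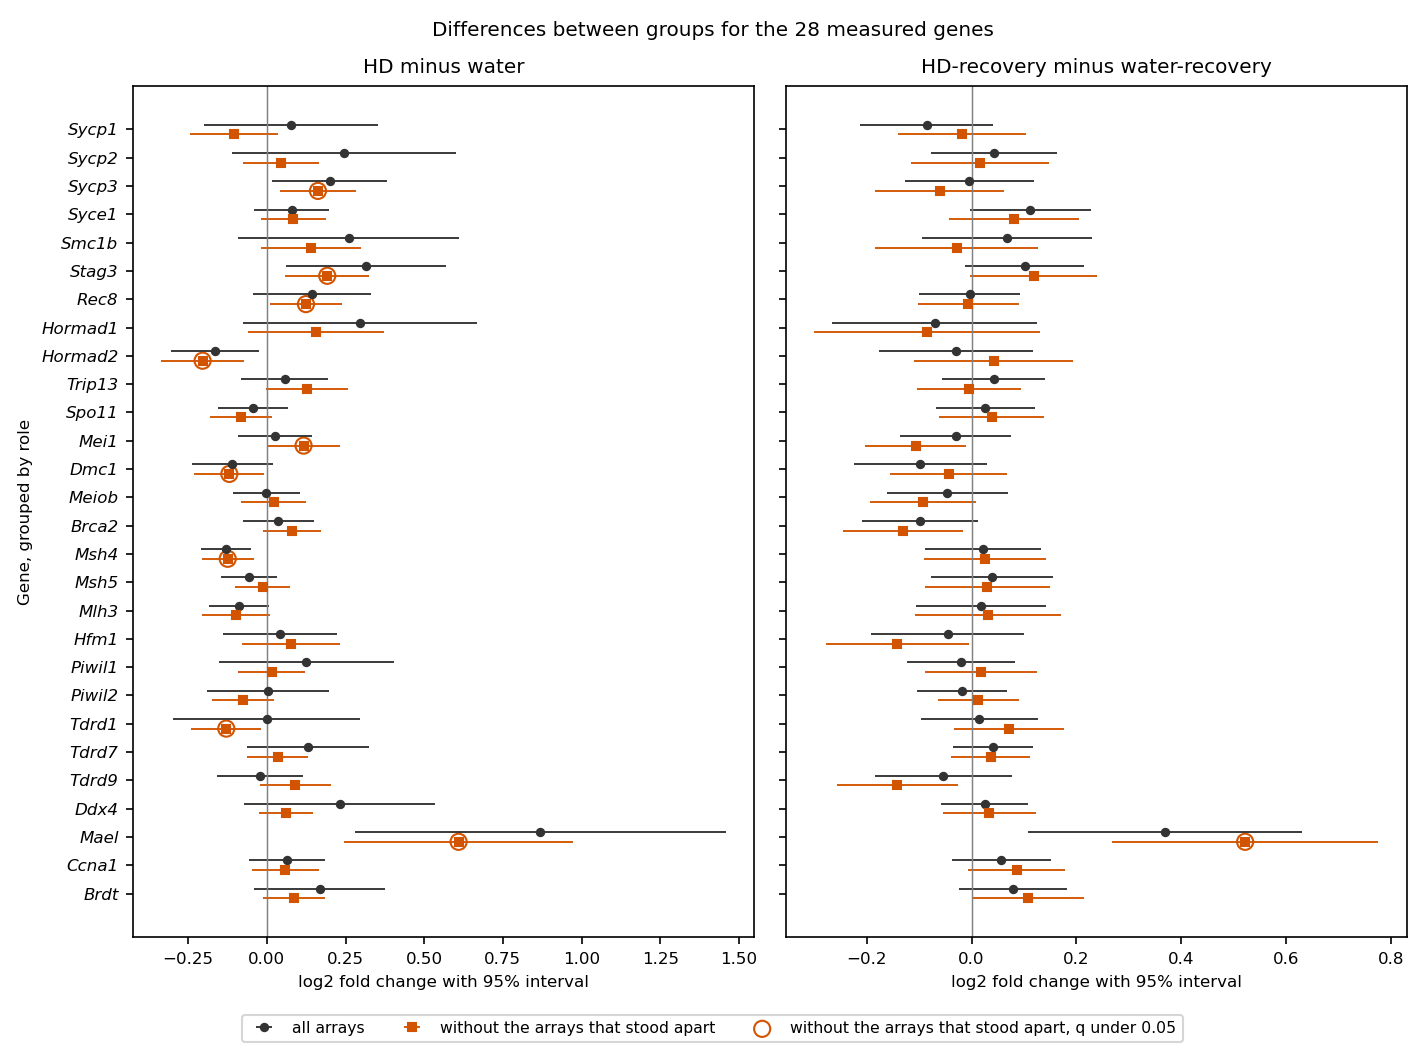
Log2 fold changes of the 28 genes with 95% intervals, HD minus water on the left and HD-recovery minus water-recovery on the right. Black points use all arrays, orange squares leave out the arrays that stood apart, and rings mark q under 0.05. Rings are on 9 genes on the left and on Mael alone on the right, and the interval of Mael lies above 0 in all 4 fits.

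The change over time was read from a limma fit to all 4 groups. No member differed between HD-recovery and HD (0.154% of probe sets did, 37 higher and 8 lower in HD-recovery), between water-recovery and water (0%), or in the difference of the HD effect between the recovery and the 3-month comparison (0%). At an unadjusted p under 0.05 there were 5, 1 and 1 members in these comparisons (17.9%, 3.57% and 3.57%). Over the array there were 2789, 1374 and 987 of 29214 probe sets. Mael had the smallest p of the members between HD-recovery and HD, with a log2 fold change of −0.77 (SE 0.23, limma p = 0.00138, q = 0.149), and Stag3 had −0.25 (SE 0.10, q = 0.321). For the difference of the HD effect, Mael had −0.50 (SE 0.33, limma p = 0.135), so the smaller difference in recovery was within its error, and Msh4 had 0.15 (SE 0.07, limma p = 0.0256, q = 1.00). Without the arrays that stood apart, 17 members (60.7%) passed between HD-recovery and HD, beside 60.9% of all probe sets. The calls over all probe sets were then 5497 higher and 12295 lower in HD-recovery, so that the direction of most calls turned. In the difference of the HD effect 12 members (42.9%) passed, beside 61.6%, while none passed between water-recovery and water (0%). At an unadjusted limma p under 0.05 there were 12 members between HD-recovery and HD and 8 in the difference of the HD effect. The probe sets at that threshold were 14654 and 14440, so some q-value calls had a p above 0.05. By Benjamini-Hochberg adjustment 9 and 6 members passed, beside 11547 and 10842 of 29214 probe sets.

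The spread between arrays was compared through the absolute deviation of each array from its group median. No member and no other probe set passed at q under 0.05 between HD and water or between HD-recovery and water-recovery (0% in both). At an unadjusted p under 0.05, no member (0%) differed between HD and water, where 873 of 29214 probe sets did. In recovery 5 of the 28 members did (17.9%), where 972 of 29214 probe sets did. Benjamini-Hochberg adjustment gave no call either. Of these Brca2, Hormad2, Mael and Stag3 were more spread in HD-recovery than in water-recovery (limma p = 0.00149, 0.0106, 0.0199 and 0.0356), and Meiob, a single-strand binding protein of meiotic recombination, was less spread. Mael had an SD of 1.27 in HD and 0.51 in water arrays, and of 0.49 in HD-recovery and 0.31 in water-recovery arrays.

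Within groups, the members with the largest pooled SD were Mael (0.74), Hormad1 (0.48) and Smc1b (0.44), and 99.8%, 95.6% and 93.7% of all probe sets had a smaller one. Without HD replicate 5 these SDs were 0.56, 0.32 and 0.26. Hormad1 ran from 6.01 to 10.02 with a median of 6.97 in HD arrays and from 6.16 to 7.28 with a median of 6.76 in water arrays. Smc1b ran from 5.55 to 9.30 with a median of 6.24 in HD arrays and from 5.79 to 6.47 with a median of 6.11 in water arrays. The second highest HD array was at 7.26 for Hormad1, inside the water range, and at 6.68 for Smc1b, above it. The median SD of the members was 0.23 with all arrays, beside 0.21 over all probe sets. Without HD replicate 5 it was 0.17 for the members, and the matching value over all probe sets was not computed.

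The members varied together mainly through that array. With group means removed, the median correlation between pairs of members over the 77 arrays was 0.29, beside 0.01 between pairs of all genes with 1 symbol, and it was 0.12 over the 76 arrays without HD replicate 5, beside 0.02. These correlations share the arrays and their common components and are given as a description. The first component of the within-group variance held 41.9% of it and the second 7.40%. Stag3, Mael and Brdt followed the second component most closely (r = −0.86, −0.81 and −0.81), while Mei1, Tdrd9 and Trip13 followed the first (r = −0.81, −0.75 and −0.69). Sycp2 and Ddx4 were the most alike pair of members (r = 0.93).

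Promoter windows of 4 genes that were highest in HD replicate 5 are printed here, and all 4 hold a motif match. Shared control of these genes was not tested. The windows were taken from RefSeq on the rat build GRCr8 and run from 250 bases before to 50 bases after the annotated start. Capitals mark matches to CAACTG (a MYB motif), GCGGGAA (E2F) or CACGTG (the E-box read by MAX), searched on both strands.
Mael promoter: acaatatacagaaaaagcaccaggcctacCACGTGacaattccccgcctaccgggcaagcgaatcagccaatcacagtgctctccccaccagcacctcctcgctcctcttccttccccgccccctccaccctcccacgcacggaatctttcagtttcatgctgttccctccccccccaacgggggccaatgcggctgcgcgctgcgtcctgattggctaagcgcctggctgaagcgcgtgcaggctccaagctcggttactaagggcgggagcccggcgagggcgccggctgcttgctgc
Stag3 promoter: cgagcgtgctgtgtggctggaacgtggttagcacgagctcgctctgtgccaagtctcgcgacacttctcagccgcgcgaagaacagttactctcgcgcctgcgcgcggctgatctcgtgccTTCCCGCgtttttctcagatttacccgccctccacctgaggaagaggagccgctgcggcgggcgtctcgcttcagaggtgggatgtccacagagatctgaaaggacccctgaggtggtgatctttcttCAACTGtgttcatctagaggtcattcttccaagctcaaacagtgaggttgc
Sycp2 promoter: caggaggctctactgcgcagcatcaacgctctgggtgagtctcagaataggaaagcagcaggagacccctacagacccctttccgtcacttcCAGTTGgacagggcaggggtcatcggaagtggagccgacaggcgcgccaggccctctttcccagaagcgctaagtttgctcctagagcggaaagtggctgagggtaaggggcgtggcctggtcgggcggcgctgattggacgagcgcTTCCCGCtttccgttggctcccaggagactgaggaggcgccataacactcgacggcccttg
Ddx4 promoter: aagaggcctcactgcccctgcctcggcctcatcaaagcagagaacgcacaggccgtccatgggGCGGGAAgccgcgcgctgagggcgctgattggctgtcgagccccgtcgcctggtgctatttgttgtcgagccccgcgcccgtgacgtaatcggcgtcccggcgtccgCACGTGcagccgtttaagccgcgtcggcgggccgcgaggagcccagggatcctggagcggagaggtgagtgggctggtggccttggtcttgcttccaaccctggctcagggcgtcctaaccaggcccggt
The Mael window is chr13:81029574-81029873 on the minus strand, with an E-box whose first base is at −221 from the start. The Stag3 window is chr12:22398158-22398457 on the plus strand, with an E2F motif on the opposite strand and a MYB motif at the start itself. The Sycp2 window is chr3:185876443-185876742 on the minus strand, with MYB and E2F motifs on the opposite strand. The Ddx4 window is chr2:46015902-46016201 on the minus strand, with an E2F motif and an E-box.

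RefSeq windows were given for 25 of the 32 genes, and Syce1, Syce2, Meiob, Msh4, Msh5, Piwil2 and Tdrd9 were without one. The E-box was found in 9 of the 25 (36%), among them Mael, Ddx4, Brdt, Piwil1, Tdrd1 and Sycp3, beside 6.42% of 33469 windows of the same length. The E2F motif was found in 7 (28%, beside 4.21%), among them Smc1b, Spo11 and Hormad1, and the MYB motif in 6 (24%, beside 13.9%). The CRE TGACGTCA was found in none, beside 1.83%. Hormad1 and Mei1 held the MYB, E2F and E-box motifs together. Other windows held none of these motifs, among them those of Sycp1, Rec8, Tdrd7, Hfm1, Dmc1 and Hormad2, genes also highest in HD replicate 5. A match describes the letters of the window only.

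Mael was also set against markers of other cells within each group. All 28 members were correlated with the mean of the 7 pachytene spermatocyte and round spermatid markers and with the mean of 26 leukocyte markers in each of the 4 groups, 224 relations in all, with 100000 permutations each, two-sided, and Benjamini-Hochberg adjustment over all of them. Mael was the 1 member whose Pearson's r and Spearman's rho with the spermatocyte and spermatid markers both passed in all 4 groups. In the HD arrays r was 0.97 and rho 0.91 (permutation p = 1e-05 for each, the smallest the permutations can give, adjusted p = 0.00056), and r was 0.87 without HD replicates 5 and 7, the farthest from the median of the markers. In the water arrays r was 0.93 and rho 0.93 (permutation p = 1e-05 for each, adjusted p = 0.00056), and 0.89 without the 2 farthest arrays.

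The relation held in the recovery groups as well. In HD-recovery arrays Mael had r = 0.81 and rho = 0.84 (permutation p = 3e-05 and 1e-05, adjusted p = 0.00096 and 0.00056), and r = 0.87 without the 2 farthest arrays. In water-recovery arrays it had r = 0.82 and rho = 0.76 (permutation p = 3e-05 and 0.00052, adjusted p = 0.00096 and 0.0146), and r = 0.69 without the 2 farthest. With the leukocyte markers r was −0.28 in HD and 0.35 in water arrays, and 0.21 in HD-recovery and 0.15 in water-recovery arrays (adjusted permutation p = 0.363, 0.254, 0.515 and 0.697), and rho was −0.18, 0.53, 0.16 and 0.09 (adjusted permutation p = 0.673, 0.0876, 0.699 and 0.825). The log2 mean of the marker list was 8.23 ± 0.59 (SD, n = 19) in HD and 8.06 ± 0.33 (SD, n = 20) in water arrays, with highest values of 10.15 and 8.64. It was 8.03 ± 0.31 (SD, n = 20) in HD-recovery and 7.87 ± 0.19 (SD, n = 18) in water-recovery arrays, with highest values of 8.59 and 8.26. With all arrays none of the 7 markers passed at q under 0.05 in either comparison, and their median log2 fold changes were 0.23 at the end of exposure and 0.10 in recovery. The part of spermatocyte or spermatid RNA in the difference of Mael was not tested.

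**Figure D5:**
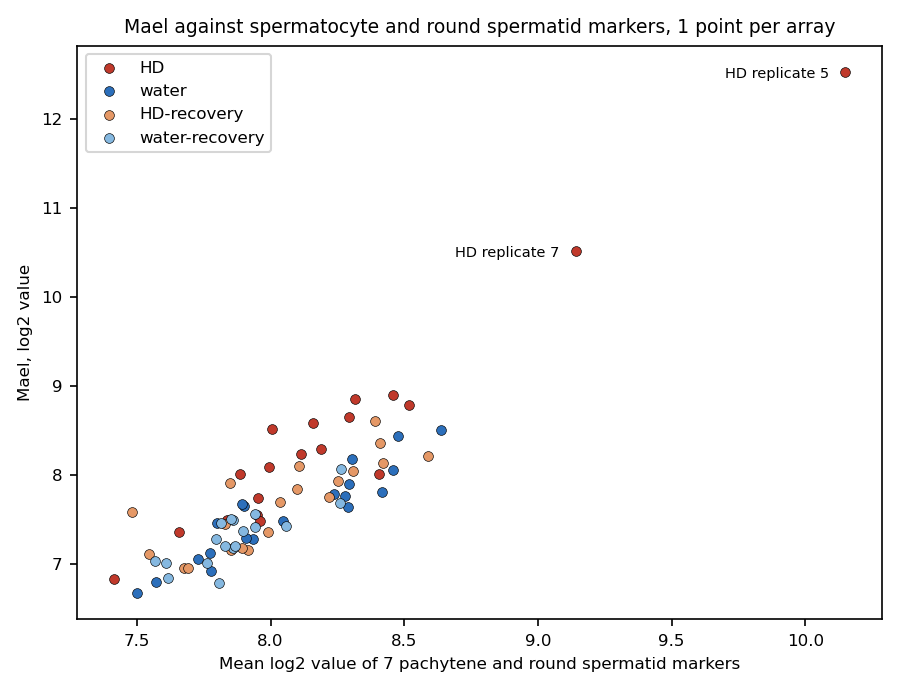
Log2 value of Mael against the mean log2 value of 7 markers of pachytene spermatocytes and round spermatids, 1 point per array, coloured by group. HD replicates 5 and 7 lie at the upper right, and Mael increases with the markers within each of the 4 groups.

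Other members followed the markers less widely. In HD arrays, 10 of the 28 had a positive r that passed, and for 4 of these rho passed too. A negative r passed for 2 members. The median r over all 28 was 0.64 with all 19 arrays and −0.11 without HD replicates 5 and 7. Stag3 had r = 0.94 in HD arrays (rho = 0.73, permutation p = 1e-05 and 0.00051, adjusted p = 0.00056 and 0.0146), and 0.68 without those arrays. Mei1 ran against the leukocyte markers in 3 groups. Its r was −0.37 in HD and −0.73 in water arrays (permutation p = 0.124 and 0.00025, adjusted p = 0.245 and 0.00400), and −0.84 in HD-recovery and −0.60 in water-recovery arrays (permutation p = 2e-05 and 0.00761, adjusted p = 0.000896 and 0.0458). Its rho was −0.45 in HD and −0.66 in water arrays (adjusted permutation p = 0.165 and 0.0279), and −0.71 in HD-recovery and −0.66 in water-recovery arrays (adjusted permutation p = 0.0169 and 0.0350). Without the 2 arrays farthest in these markers r was −0.20 in HD, −0.62 in water, −0.80 in HD-recovery and −0.65 in water-recovery arrays. Mei1 also followed the first component of the within-group variance of the whole array (r = −0.81), whose part in this relation was not tested. The leukocyte list mean ran from 7.15 to 7.99 in HD arrays and from 7.26 to 8.02 in water arrays. Of its 26 genes 5 were lower in arrays labelled HD (Lyz2, Fcer1g, Cx3cr1, Ccr2 and Cd4), beside 0.472% of all probe sets called. At least Lyz2 was also selected by the study on the same arrays, so it is no independent evidence of a direction. When arrays that stood apart were dropped, 17 of the 26 were lower (median log2 fold change −0.29), beside 36.8% of all probe sets called in either direction.

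Other genes of these pathways were read from lists drawn up by function. Of 21 measured genes among 46 other meiosis genes, 2 passed with all arrays, beside 0.472% of all probe sets. Both were lower in arrays labelled HD, and both were also chosen in the study on the same arrays (Fank1 among its selected transcripts, Hsf2bp in a longer list of altered ones), so they are no independent evidence of a direction. Without the arrays that stood apart 4 of the 21 were higher (Meig1, Mei4, Terb2 and Rec114) and 4 lower (Fank1, Hsf2bp, Sun1 and Boll), beside 36.8% of all probe sets. Fank1, a testis protein present from the meiotic phase on, averaged 7.57 ± 0.59 (SD, n = 19) in HD and 8.35 ± 0.61 (SD, n = 20) in water arrays, a log2 fold change of −0.77 (SE 0.18, limma q = 0.0356), and 16 of 19 HD arrays lay below the water median. Hsf2bp, which brings BRCA2 to meiotic breaks in mouse, averaged 6.58 ± 0.21 (SD, n = 19) in HD and 6.96 ± 0.34 (SD, n = 20) in water arrays, a log2 fold change of −0.39 (SE 0.09, limma q = 0.0316), and 18 of 19 HD arrays lay below the water median. Brca2, its partner in the set, had a log2 fold change of 0.04. In recovery Fank1 had −0.10 (SE 0.19) and Hsf2bp −0.05 (SE 0.10), and neither passed. In recovery Mns1 was the 1 of the 21 that passed without the arrays that stood apart, at 0.12 (q = 0.0443), beside 13.1%. Of 13 measured genes among 21 other piRNA genes none passed in either comparison with all arrays, with median log2 fold changes of 0.04 at the end of exposure and 0.01 in recovery, and the medians of the 21 meiosis genes were 0.05 and −0.02. When arrays that stood apart were dropped, 2 of the 13 were higher in HD arrays (Ddx25 and Piwil4) and 3 lower (Tdrd3, Gtsf1 and Prmt5). All probe sets were then called at 36.8%. In recovery Ddx25, a helicase of round spermatids in mouse, was higher, at 0.26 (q = 0.00386), beside 13.1% of all probe sets called.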

How the data were processed

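Sperm RNA of 77 rats was read on Affymetrix whole-transcript arrays. The authors deposited 1 table of normalized log2 values per probe set and array, taken to be log2 intensities from their range (2.51 to 14.63), with the normalization stated only by reference and the background correction not given in the sources used here. Of the 29214 probe sets, 15310 carried 1 symbol in the platform annotation, 323 several and 13581 none; all were tested. As in the study, limma (3.58.1, R 4.3.3) set exposed rats against the controls of the same time, and p-values over all probe sets were turned into Storey q-values (lambda 0.05 to 0.95, spline with 3 df; own code), called under 0.05. Contrasts over time used 1 fit to the 4 groups. Fits were tested on simulated data. The members, lists and tests were chosen with earlier results of these data known. Named genes were members at q under 0.05 in any comparison, the 3 of smallest p in each direction in both main comparisons and the 3 of largest pooled SD; others, and HD replicates 5 and 7, were named after their values were seen. Alternatives covered the q-values, scaling, dim probe sets, array weights, arrays that stood apart, a principal component, the pooling of groups, replicate numbers and single arrays. No pair of arrays held identical values. Their number, 18 to 20 a group, limits the precision. Promoter motifs were searched with Python 3.11.15.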

Additional observations from a re-analysis of the deposited data

How the results depend on the processing

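No member passed at the end of exposure with all arrays. Of the 28, the number that did was 5 with array weights, beside 5178 of 29214 probe sets. It was 9 once arrays that stood apart were dropped, beside 10739. It was 2 (Mael and Msh4) with a principal component as covariate, beside 1433, and 1 (Mael) with all 4 groups in one fit, beside 221. When single arrays were omitted it was 0 to 1 (Msh4, without HD replicate 5, beside 1.13% of all probe sets). In recovery it was 1 (Mael) with array weights, beside 527 of 29214 probe sets, and 1 after dropping arrays that stood apart, beside 3834. It was 0 in every recovery fit that left out a single array. Over all probe sets the 138 calls at the end of exposure became 63 with array medians centred, 352 after quantile normalization, 222 in the brighter part of the probe sets, 5178 with array weights (2644 higher), 10739 after dropping arrays that stood apart (6576 higher), 1433 with the principal component (388 higher), 221 with all 4 groups (46 higher) and 76 (without water replicate 10) to 376 (without HD replicate 14) when single arrays were omitted, with 22 of 39 such fits moving it by over 1.5 times. In recovery the 0 calls became 527 with array weights, 3834 after dropping arrays that stood apart and 60 with the principal component. The 45 calls between HD-recovery and HD and the 0 in the difference of the HD effect became 17792 and 18010 after dropping them. With Benjamini-Hochberg adjustment the latter counts were 11547 and 10842. The cause was not tested. The sign of the log2 fold change of a named gene turned in these cases. At the end of exposure Sycp1 was −0.066 with array weights, −0.10 after dropping arrays that stood apart and −0.052 (without HD replicate 5) to 0.11 when single arrays were omitted. In recovery Sycp3 was 0.0010 with medians centred, 0.022 after quantile normalization, 0.012 with the replicate block and −0.029 to 0.011 when single arrays were omitted. Smc1b was −0.0072 with array weights and −0.029 after dropping arrays that stood apart, Hormad2 was 0.011 and 0.042 under these settings, and Mlh3 was −0.0098 with the replicate block and −0.020 to 0.033 when single arrays were omitted. Replicate numbers did not pair the samples: deviations of arrays with the same number correlated at −0.58 to 0.65 at the end of exposure and −0.41 to 0.64 in recovery, and the replicate block gave 156 calls at the end of exposure and called no member. The median member log2 fold change lay between 0.03 and 0.07 and between −0.01 and 0.03 when single arrays were omitted. Within replicate numbers 1 to 10 and 11 to 20, Mael had 1.27 and 0.51 at the end of exposure and 0.29 and 0.45 in recovery. Smc1b had 0.54 and 0.0070, Stag3 0.50 and 0.14, Hormad1 0.48 and 0.12, Sycp1 0.18 and −0.0072 and Brca2 0.10 and −0.030 at the end of exposure. In recovery Hormad2 had −0.14 and 0.079, Smc1b −0.033 and 0.17 and Sycp3 −0.031 and 0.022. No named gene was called within either range.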
